A study of Mus musculus with 3 samples.

Results

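Il2, Il3, Csf2 and Lif, 4 cytokine genes that T cells are known to switch on within hours of antigen receptor stimulation, were examined in RNA from mouse T-helper 1 (Th1) cells. They were taken by gene symbol from the 50600 genes of the deposited tables, of which 21764 are coding, and all 4 were found. The libraries form 1 group of 3 biological replicates of Th1 primary cells from strain C57BL/6NJ, each with its own biosample record but all under 1 donor record, and there was no second condition, genotype or treatment. Age is given as unknown, the labels point to a protocol for differentiating CD4+ T cells, and a 16 hr tag in the file headers has no counterpart in the labels. By the deposited counts, Il2 was the highest of the 4 in every library, and Il3 and Lif lay at similar levels below it. Csf2 was at the limit of detection. Whether these counts are of sense or antisense reads was not tested.

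Il2 encodes interleukin 2, the growth factor through which activated T cells drive their own division and sustain regulatory T cells. Il3 and Csf2 encode interleukin 3 and GM-CSF, neighbouring genes whose products act on myeloid cells, mast cells and their precursors through receptors that share a beta chain. Lif encodes leukemia inhibitory factor, a cytokine of the IL-6 family that signals through Lifr and Il6st. Such genes are induced by NFAT, AP-1 and NF-kappa B factors at the promoter, and their mRNAs carry AU-rich elements in the 3′ untranslated region that mark them for rapid decay.

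The AU-rich elements are shown first, because they are the feature of the mRNA that this kind of gene is known for. ATTTA, the core pentamer of the element, was searched on the mRNA strand in the longest 3′ untranslated region that GENCODE vM21 gives each gene, and overlapping matches were counted. For each gene the 30-base window with the most pentamers follows, 5′ to 3′ in DNA letters, with the pentamers in capitals. The Il2 window lies at chr3:37121038-37121067 (minus strand), that of Csf2 at chr11:54247320-54247349 (minus strand) and that of Lif at chr11:4272414-4272443 (plus strand) of mm10. The Il3 pentamer stands so near the annotated end that its window at chr11:54265303-54265311 (minus strand) holds 9 bases.
Il2: ATTTATTTAaatATTTAactttaATTTAtt
Il3: ATTTAtcta
Csf2: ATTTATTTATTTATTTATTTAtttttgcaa
Lif: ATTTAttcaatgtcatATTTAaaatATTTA

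The window of Csf2 held 5 pentamers in an unbroken overlapping run, that of Il2 held 4, that of Lif held 3 and that of Il3 held 1. Of 21690 genes with a 3′ untranslated region, 0.263% had at least as many pentamers in 30 bases as Csf2, 0.572% as Il2, 2.49% as Lif and 63.2% as Il3. Over the whole region Csf2 had 9 pentamers in 320 bases, Il2 had 7 in 584, Lif had 7 in 3183 and Il3 had 1 in 104. Per kilobase this was 28.1 for Csf2, 12.0 for Il2, 9.62 for Il3 and 2.20 for Lif, against a median of 1.15. The longer form TTATTTATT occurred 4 times in Csf2, 2 times in Lif and 1 time in Il2, and 7.42% of genes had it. The annotation used for Il3 ends early: RefSeq places the end of the gene 218 bases further downstream, so pentamers there were not searched.

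The promoters of Il2 and Lif, the members with the most counts, are shown next with the letters searched for 2 of the inducing families. GGAAA is the core bound by NFAT. TGANTCA, with any base in the middle, was the pattern searched for AP-1. Both strands were searched in the 250 bases before the RefSeq start on GRCm38.p6, and the motifs do not share bases where they occur here. Matches are in capitals, with GGAAA on the other strand reading TTTCC. The Il2 stretch is chr3:37125955-37126204 (minus strand) and the Lif stretch is chr11:4257318-4257567 (plus strand).
Il2: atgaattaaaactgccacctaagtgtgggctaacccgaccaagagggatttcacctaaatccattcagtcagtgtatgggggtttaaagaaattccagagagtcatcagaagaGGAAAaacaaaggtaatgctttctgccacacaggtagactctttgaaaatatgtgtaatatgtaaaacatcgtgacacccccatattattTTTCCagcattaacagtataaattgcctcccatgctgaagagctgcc
Lif: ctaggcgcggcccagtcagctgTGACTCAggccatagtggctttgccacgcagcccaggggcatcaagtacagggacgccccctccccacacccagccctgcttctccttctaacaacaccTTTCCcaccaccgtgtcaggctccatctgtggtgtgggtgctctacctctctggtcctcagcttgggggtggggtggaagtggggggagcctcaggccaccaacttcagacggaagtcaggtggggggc

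GGAAA occurred 2 times in Il2 and 2 times in Csf2, and 1 time each in Il3 and Lif. In Il2 the matches began 137 and 47 bases before the start, and in Lif the match began 129 bases before it. GGAAA is short, and 55.6% of 32851 RefSeq promoters of this length held it. TGANTCA was matched in Lif, 228 bases before the start, and 6.75% of promoters held it. Both motifs together, as in Lif, were in 3.82% of promoters. These matches describe letters, and binding was not measured.

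The deposited gene counts summed to 2568928 to 4764598 per library. Levels are given as TPM, counts per exon length scaled to a common sum in each library, and 1 TPM stood for 1.28 to 2.25 counts per kilobase. Many counts lay on genes that face a gene of the other strand. Coding genes with no exon inside the body of an opposite-strand gene, called clear genes here (15865), held 41.4%, 37.1% and 26.3% of the counts in replicates 1, 2 and 3, and member levels are also given as TPM over those genes alone. In 91 pairs of a noncoding gene nested in coding exons of the other strand, the noncoding gene was the higher per kilobase in 76, 76 and 80, and the coding gene had a median of 5.26%, 3.79% and 2.16% of its counts per kilobase. If the libraries were of the opposite strandedness to the counting setting, sense reads would have been counted on the other strand. Every gene value here, for members and lists alike, would then be a count of antisense reads. The kit is not given in the sources used here, this was not tested, and clear genes do not guard against it. All 8 T cell markers were detected, whereas of 6 Th1 markers only Il12rb2, which overlaps an opposite gene, reached 1 TPM in every library; Tbx21 had 2, 10 and 2 counts, Ifng had 1, 0 and 0, Cxcr3 had 0, 0 and 1, and Ccl5 had 0 in each.

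A gene was called detected where each library gave it 1 TPM or more, which 39.8% of coding genes reached. Il2, Il3 and Lif were detected, and Csf2 reached 1 TPM in replicate 1 only. The intervals beside counts are exact 95% Poisson intervals and cover counting error only.

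Il2 (ENSMUSG00000027720.7; mm10 chromosome 3, 37120523 to 37125959, minus strand; 4 exons, 1144 exon bases) had 652 counts (603 to 704) in replicate 1, 297 (264 to 333) in replicate 2 and 113 (93.1 to 136) in replicate 3. In TPM this was 253, 204 and 62.1, a mean of 173 ± 99.0 (SD, n = 3). Replicates 1 and 2 were high and replicate 3 was low, and replicate 3 was 4.07-fold below replicate 1. Ranked by mean level, Il2 stood above 97.9% of coding genes. Its rank among them was 340 in replicate 1, 407 in replicate 2 and 1027 in replicate 3.

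Il3 (ENSMUSG00000018914.5; chromosome 11, 54265303 to 54267277, minus strand; 5 exons, 629 exon bases) had 31 counts (21.1 to 44.0), 38 (26.9 to 52.2) and 10 (4.80 to 18.4) in replicates 1, 2 and 3. In TPM this was 21.9, 47.4 and 10.00, a mean of 26.4 ± 19.1 (SD, n = 3), which was 15.9 without replicate 2. Unlike Il2, its highest library was replicate 2, and replicate 3 was again the lowest. The mean stood above 87.2% of coding genes. The counts are few: in TPM the interval of replicate 3, 4.79 to 18.4, overlaps that of replicate 1, 14.9 to 31.0, but not that of replicate 2, 33.5 to 65.0. The RefSeq end of Il3 lies beyond the counted one, so reads from that stretch would be missing from these counts.

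Csf2 (ENSMUSG00000018916.5; chromosome 11, 54247271 to 54249667, minus strand; 4 exons, 800 exon bases) had 3 counts (0.619 to 8.77) in replicate 1 and 0 in replicates 2 and 3. In TPM these are 1.66, 0 and 0, a mean of 0.554 ± 0.960 (SD, n = 3). A count of 0 allows up to 3 counts, which is 2.94 TPM in replicate 2 and 2.36 TPM in replicate 3. Replicate 1 thus lies under what the zeros of the other two allow, and no difference between libraries was detectable at this depth. RefSeq starts the gene 232 bases upstream of the counted start, a stretch these counts leave out.

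Lif (ENSMUSG00000034394.14; chromosome 11, 4257557 to 4272514, plus strand; 5 exon entries, 4350 exon bases) had 209 counts (182 to 239), 103 (84.1 to 125) and 84 (67.0 to 104) in replicates 1, 2 and 3. In TPM this was 21.3, 18.6 and 12.1, a mean of 17.3 ± 4.70 (SD, n = 3), above 82.7% of coding genes. It was the steadiest of the 3 detected members, with a coefficient of variation of 27.1% against 57.3% for Il2 and 72.3% for Il3. It is the longest of the 4 genes, so a level near that of Il3 stands on more counts. Fewer cells making a cytokine and less mRNA in each cell cannot be told apart in RNA from whole cultures.

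**Figure D1:**
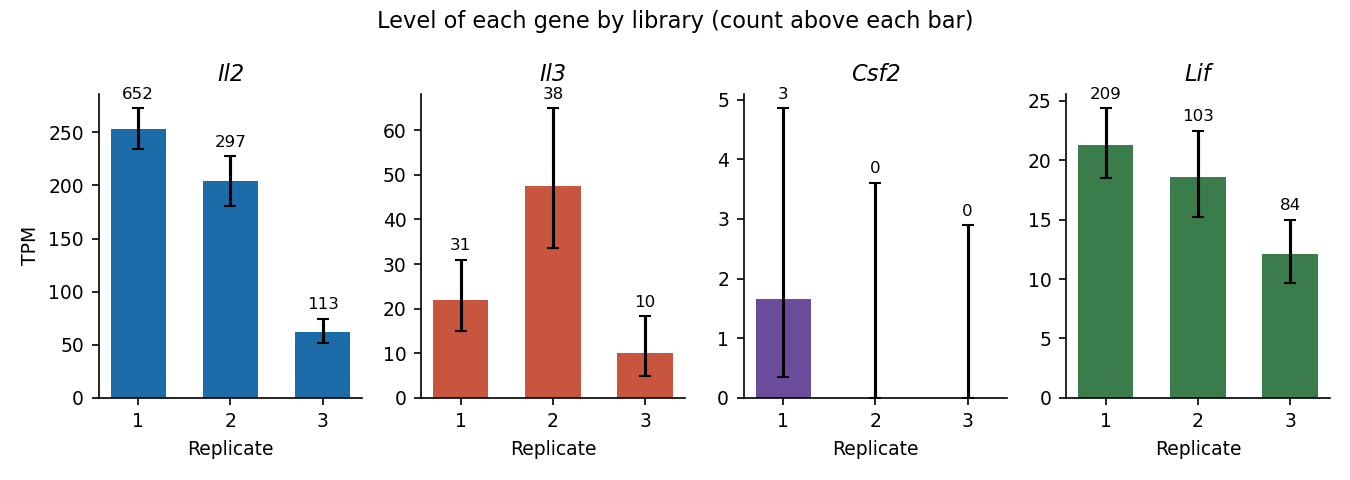
Level of each cytokine gene in TPM (vertical axes, each from 0) in replicates 1 to 3, with the count printed above each bar and error bars for the exact 95% Poisson interval. Il2 reached 253, 204 and 62.1 TPM, Il3 was highest in replicate 2, Lif stayed between 12.1 and 21.3, and Csf2 had counts in replicate 1 only.

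**Figure D2:**
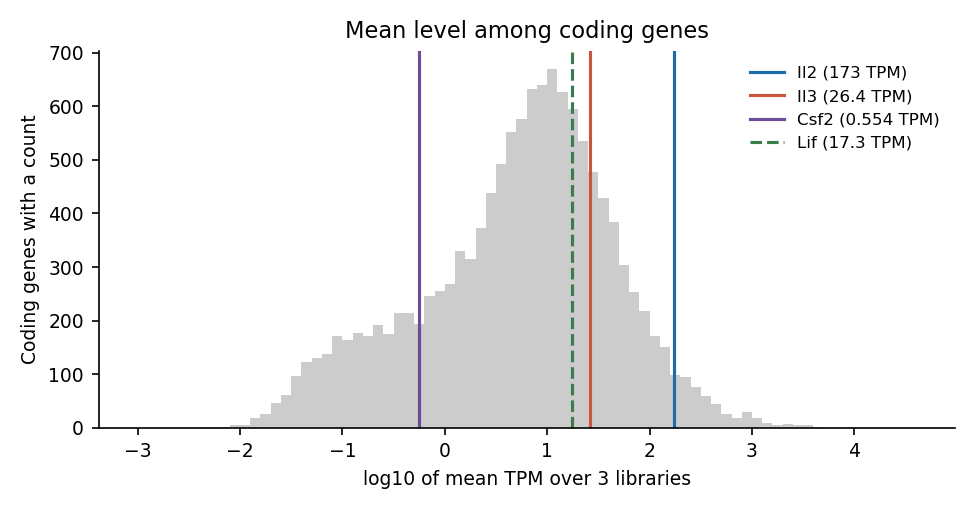
Histogram of mean TPM over 3 libraries (log10 axis) for coding genes with a count, with a vertical line at each of the 4 cytokine genes. Il2 at 173 TPM lies in the upper tail, Il3 and Lif at 26.4 and 17.3 lie just above the peak, and Csf2 at 0.554 lies in the lower shoulder.

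Together the 4 genes summed to 298, 269 and 84.3 TPM, and Il2 made up 84.9%, 75.5% and 73.7% of that in replicates 1, 2 and 3. The order was read as ratios of counts per kilobase within each library, which no scaling of the library can change. Il2 exceeded Il3 11.6-fold, 4.30-fold and 6.21-fold in replicates 1, 2 and 3, a mean log2 ratio of 2.72 ± 0.72 (SD, n = 3). It exceeded Lif 11.9-fold, 11.0-fold and 5.12-fold, a mean log2 ratio of 3.12 ± 0.67 (SD, n = 3). Both ratios were above their SD in size and kept their direction in 3 of 3 libraries.

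Il3 and Lif did not differ beyond their spread. The ratio of Il3 to Lif was 1.03, 2.55 and 0.823, above 1 in 2 of 3 libraries, with a mean log2 ratio of 0.40 ± 0.85 (SD, n = 3; exact two-sided sign-flip test p = 0.75). Without replicate 2 the mean log2 ratio was -0.08, so which of the pair came second rested on that library. Csf2 was below each of the others in 3 of 3 libraries. Over pooled counts Il2 exceeded it 248-fold (95% interval 84.5 to 1202) and Il3 exceeded it 33.5-fold (11.1 to 166), wide intervals because Csf2 has 3 counts in all. Its pooled ratio to Lif was 0.0412 (0.00846 to 0.121). With 3 libraries the exact sign-flip test cannot go below p = 0.25, which the other 5 of 6 pairs reached, each 0.3 after Benjamini-Hochberg adjustment over the 6 pairs.

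Each gene's 3 counts were then set against shares fixed by the library totals. A chi-square test with 2 degrees of freedom compares these libraries and not conditions, and 81.6% of the 11877 genes tested passed at an adjusted p of 0.05. Il2, Il3 and Lif passed, as most genes did, and Csf2 had too few counts to be tested. Il2 held 1.31, 1.10 and 0.384 times its expected count in replicates 1, 2 and 3 (Benjamini-Hochberg adjusted p = 1.36e-34). Il3 held 0.836, 1.90 and 0.456 times its expected count (adjusted p = 1.70e-05), and the adjusted p was 0.125 without replicate 2. Lif held 1.12, 1.03 and 0.765 times its expected count (adjusted p = 0.0148), which rose to 0.0700 without replicate 1 and 0.554 without replicate 3.

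The low values of replicate 3 were shared with most genes. All 3 detected members had their lowest TPM there, as did 72.9% of detected coding genes. The median detected coding gene deviated from its own mean log2 level by 0.35, 0.14 and -0.48 in replicates 1, 2 and 3, and Lif deviated by 0.34, 0.14 and -0.47. Il2 deviated by 0.78, 0.47 and -1.25, farther than that median in the same directions. Il3 deviated by 0.00, 1.12 and -1.12. Their ratio of highest to lowest TPM was 4.07 for Il2 and 4.74 for Il3, larger than in 95.1% and 97.2% of detected coding genes, and 1.75 for Lif, larger than in 29.5%. A ratio of at least 2 was found in 54.9% of detected coding genes.

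Scaled as TPM over clear coding genes, Lif was level and Il2 and Il3 were not. The median deviation of detected coding genes on this scale was -0.02, -0.00 and 0.03. Lif had 74.1, 75.4 and 78.0 TPM over clear genes, a mean of 75.9 ± 1.98 (SD, n = 3), and its adjusted p with totals over clear genes was 0.889. Its libraries thus kept within 1.05-fold, and the direction of replicate 3 turned from lowest to highest. Il2 had 879, 827 and 399 (702 ± 264; SD, n = 3), so replicate 3 remained the low library at 2.20-fold below replicate 1, with an adjusted p of 3.20e-13. Il3 had 76.0, 192 and 64.2 (111 ± 70.9; SD, n = 3), with replicate 2 alone high (adjusted p = 1.10e-04). On this scale 66.8% of tested genes passed, 32.4% of detected coding genes were lowest in replicate 3, and 29.2% had a ratio of at least 2. The Il2 ratio was larger than in 77.5% of detected coding genes and the Il3 ratio than in 91.3%.

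**Figure D3:**
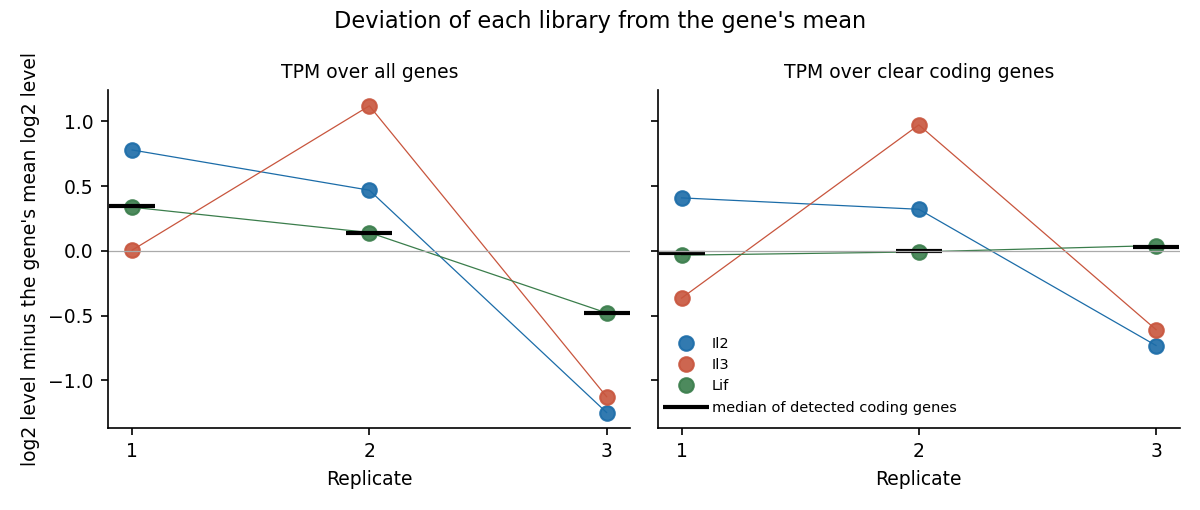
Deviation of log2 level from the gene's mean over the 3 libraries (vertical axis) for Il2, Il3 and Lif in each replicate, with TPM over all genes on the left and over clear coding genes on the right; black bars mark the median of detected coding genes. Lif sits on the median on both scales, Il2 is below it in replicate 3 (-1.25 and -0.73) and Il3 is above it in replicate 2 (1.12 and 0.97).

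Il2 and Csf2 face a gene of the other strand, and Il3 and Lif face none. Of the exon bases of Il2, 695 (60.8%, in its last exon) lie inside the body of Adad1, a coding gene known from testis (ENSMUSG00000027719.15; chromosome 3, 37063527 to 37121930, plus strand). No exon bases are shared, since the last exon of Adad1 (123 bases) lies in an intron of Il2. Adad1 had 443, 380 and 357 counts in replicates 1, 2 and 3, while Il2 had 652, 297 and 113. In TPM over all genes Adad1 was at 60.1, 91.1 and 68.7, a mean of 73.3 ± 16.0 (SD, n = 3). Il2 spread more on that scale, at 173 ± 99.0. Clear genes made up 28.7%, 24.6% and 15.6% of all TPM in replicates 1, 2 and 3, so this contrast depends on the scale. Adad1 over clear genes is not given here. Per kilobase Il2 exceeded Adad1 4.21-fold and 2.23-fold in replicates 1 and 2, and was 0.905 of it in replicate 3.

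Csf2 shares 96 exon bases with Gm12223, an antisense gene (chromosome 11, 54247600 to 54254495, plus strand), and 471 of its exon bases (58.9%) lie inside the body of that gene. Gm12223 had 22, 3 and 9 counts where Csf2 had 3, 0 and 0, so the antisense gene had more counts in each library. In replicate 2 its 3 counts do not exceed the 3 that a count of 0 allows. Its TPM was 18.5, 4.45 and 10.7. How far reads of one strand were counted for the gene on the other, at either locus, was not tested.

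**Figure D4:**
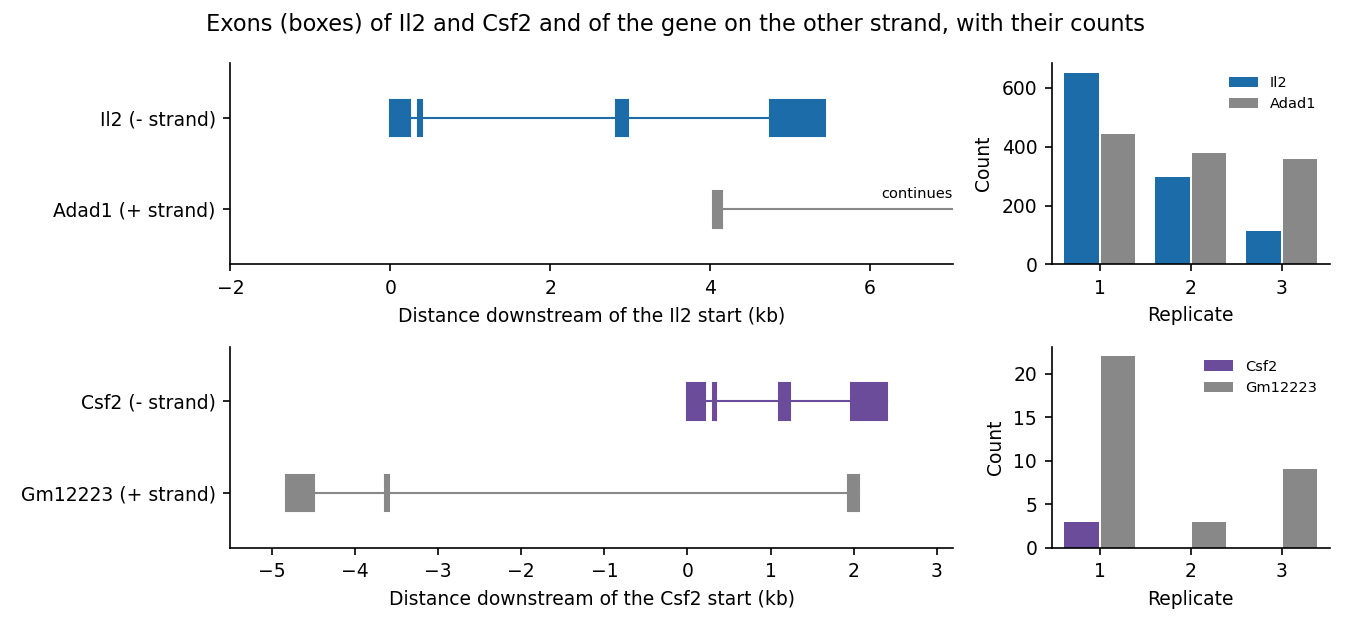
Exons (boxes) and introns (lines) of Il2 and Csf2 with the gene on the other strand, by distance in kb downstream of the member's start, beside bars of their counts in replicates 1 to 3. The last exon of Il2 lies within the body of Adad1 with no shared exon base, and Csf2 shares 96 exon bases with Gm12223, which had more counts than Csf2 in each library.

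The coding neighbours of the members were lower than the detected members beside them. Csf2 and Il3 lie 15.6 kb apart on the same strand, with 0.554 and 26.4 mean TPM. Acsl6, an acyl-CoA synthetase gene 36.5 kb on the other side of Il3, had 63, 40 and 7 counts (2.14 TPM ± 1.48; SD, n = 3). P4ha2, a collagen prolyl hydroxylase gene 116 kb from Csf2, had 10, 0 and 1 counts. Osm, which encodes oncostatin M, a cytokine of the same family as Lif, lies 16.5 kb from it and had 32, 38 and 8 counts. In TPM over all genes Osm was at 6.25, 13.1 and 2.21, a mean of 7.19 ± 5.51 (SD, n = 3). On that scale Osm was highest in replicate 2 like Il3, Lif was highest in replicate 1, and all 3 genes were lowest in replicate 3. Over clear genes Lif was level, at 74.1, 75.4 and 78.0. Hormad2, a meiosis gene on the other side of Lif, had 0 counts in each library. Il21, a cytokine gene 96.8 kb from Il2, had 12, 14 and 6 counts against 652, 297 and 113 for Il2, and 4932438A13Rik, 67.5 kb on the other side, had 363, 204 and 109.

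By the deposited counts, the receptor chains differed by cytokine. All 9 are clear genes, which does not guard against antisense reads having been counted, and that was not tested. The 3 chains of the IL-2 receptor were all detected. Il2ra, the alpha chain that gives high affinity and is induced on activated T cells, had 97.3, 97.2 and 56.3 TPM in replicates 1, 2 and 3 (83.6 ± 23.7; SD, n = 3). Il2rb, the signalling beta chain, had 50.0, 48.1 and 25.3, and Il2rg, the gamma chain shared with other interleukin receptors, had 47.6, 24.6 and 19.8. All 3 chains had their lowest TPM in replicate 3, as did 72.9% of detected coding genes. Over clear genes replicate 1 was 0.936, 1.07 and 1.30 times replicate 3 for Il2ra, Il2rb and Il2rg, against 2.20 for Il2, and 1 of the 5 detected receptor chains was still lowest in replicate 3.

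For IL-3 and GM-CSF the alpha chains were low and the shared beta chain had no counts. Il3ra had 6, 0 and 2 counts, and Csf2ra had 12, 13 and 8 (2.88, 5.51 and 2.72 TPM). Csf2rb, the shared beta chain, and Csf2rb2, its near-identical copy that serves IL-3 in mouse, had 0 counts in each library, and reads shared by the pair may not have been counted for either. Of the LIF receptor, Lifr had 0 counts in each library while Il6st, the signalling chain shared by the IL-6 family, had 24.0, 16.4 and 15.4 TPM. In all, 5 of 9 receptor chains were detected, where 39.8% of all coding genes were. The median over the 9 was 3.70 TPM, against 0.378 over all coding genes.

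**Figure D5:**
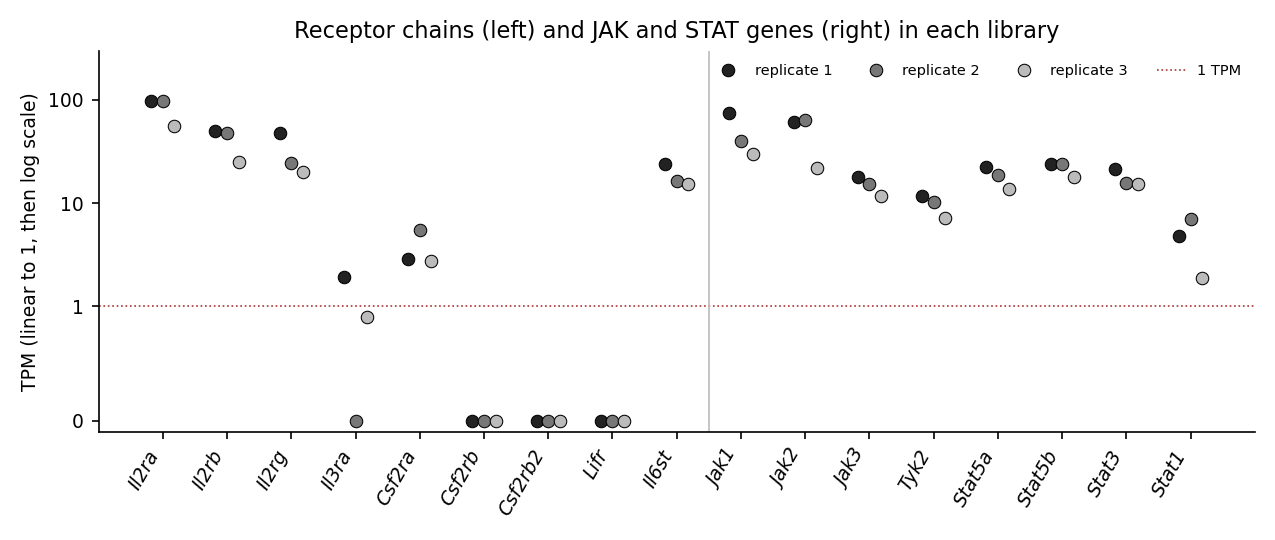
TPM of 9 receptor chain genes (left) and 8 JAK and STAT genes (right) in replicates 1 to 3, on an axis linear to 1 TPM and logarithmic above it, with a dotted line at the detection level of 1 TPM. The 3 IL-2 receptor chains and Il6st lie above 10 TPM in each library, whereas Csf2rb, Csf2rb2 and Lifr are at 0.

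All 8 JAK and STAT genes, which carry the signal from these receptors to the nucleus, were detected, against 39.8% of all coding genes. Their median was 18.0 TPM. The highest were Jak2, the kinase of the shared beta chain (49.2 TPM ± 23.7; SD, n = 3), Jak1 (48.0 ± 23.3), a kinase of the IL-2 and LIF receptors, and Stat5b (21.9 ± 3.47) and Stat5a (18.4 ± 4.46), which act downstream of IL-2. Jak1 and Stat5a overlap an opposite gene. Of 10 feedback and target genes of the same pathways 8 were detected, against that share of 39.8%, with a median over the 10 of 13.1 TPM. They were led by the growth regulator Myc (204 ± 46.2), the kinase genes Pim1 (71.9 ± 4.41, overlapping an opposite gene) and Pim2 (52.8 ± 18.4), and the survival gene Mcl1 (70.9 ± 25.4). Socs2, a feedback inhibitor, was under 1 TPM in each library. All 8 JAK and STAT genes, and 6 of the 8 detected targets, had their lowest TPM in replicate 3, as did most coding genes; over clear genes it was 2 of 8 in each list.

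Of 20 transcription factor genes listed as inducers of these cytokines, 18 were detected, against 39.8% of all coding genes. Whether each of them induces the cytokines in these cells was not tested. The median over the 20 was 19.7 TPM. Irf4, induced by T cell receptor signalling, was the highest (232 TPM ± 77.3; SD, n = 3), followed by the AP-1 genes Junb (122 ± 12.9) and Jund (96.9 ± 12.1), both overlapping an opposite gene, and the NF-kappa B gene Nfkb1 (74.0 ± 22.7). Fosb was under 1 TPM in each library, with 2, 0 and 0 counts. Of 6 genes that repress Il2, 4 were detected, against that share of 39.8%, with a median over the 6 of 4.56 TPM. Ikzf1, which encodes Ikaros, had 102 ± 36.2, Ikzf3 had 8.84 ± 1.70 and Zeb1 had 6.58 ± 1.87. Crem had 60, 5 and 23 counts and passed 1 TPM in replicates 1 and 3, and Prdm1, which encodes Blimp-1, had 0 in each library. Ikzf1, Zeb1 and Crem overlap an opposite gene.

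All 11 genes for proteins that act on AU-rich or stem-loop elements of cytokine mRNAs were detected, against 39.8% of all coding genes. Their median was 20.5 TPM. Hnrnpd, which encodes the decay factor AUF1, had 102 TPM ± 29.5 (SD, n = 3), Khsrp had 69.1 ± 16.9, Zfp36l1 had 41.4 ± 14.6 and Zfp36l2 had 31.9 ± 11.2. Of these, Zfp36l2 alone is a clear gene. Zfp36, the gene of tristetraprolin, named here with its values known, had 8.44, 4.97 and 5.44 TPM and overlaps an opposite gene.

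Among 21 other cytokine genes of T cells 10 were detected, where 39.8% of all coding genes were. The median over the 21 was 5.36 TPM, against 0.378 over all coding genes. Lta, lymphotoxin alpha, had 288, 282 and 163 TPM, Cd40lg, the CD40 ligand, had 221, 240 and 87.5, Tnf had 173, 75.1 and 77.5, and Tnfsf11, which encodes RANKL, had 88.7, 90.1 and 38.8. Set among these 4 genes, Il2 at 253, 204 and 62.1 lay below Lta in each library, above Cd40lg in replicate 1 only, above Tnf in replicates 1 and 2, and above Tnfsf11 in 3 of 3 libraries. Ifng and Il5 had 1, 0 and 0 counts each, and 7 genes including Il9 and Il10 had 0 in each library. Csf2, with 3, 0 and 0, was near those levels.

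The genes with the most similar profile over the 3 libraries were taken from 7671 or 7672 coding genes with a mean of at least 30 counts by distance of centred log2(TPM + 1). Nearest to Il2 was Ccl4, the chemokine MIP-1 beta, with 128, 60 and 23 counts (86.0, 71.3 and 21.9 TPM) and a distance of 0.0583, followed by Rabif, Ankrd28, Cldnd1 and Tent2 at up to 0.202. Nearest to Il3 were Ppfibp1, Fam118a, Ap5m1, Tmem128 and Rab28, at distances of 0.0517 to 0.0803. Il3 itself, with 79 counts in all, is under the mean asked of candidates, so its profile rests on few counts. Nearest to Lif were Slc29a1, Smarcc1, Tacc2, Ttc13 and Ints1, at 0.00877 to 0.0129. The members were not near each other: Il2 and Il3 were 1.01 apart, Il2 and Lif 0.970, and Il3 and Lif 1.18, against medians over the candidates of 1.02 from Il2, 1.22 from Il3 and 0.426 from Lif. The profile of Csf2 rests on 3 counts in replicate 1, and its nearest genes, led by Mcrip1, are not described further. Over 3 libraries such likeness is a description that shares depth and the shift of replicate 3.

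The T cell markers, which mark the labelled lineage, summed to 1633, 1250 and 754 TPM; Trac, Trbc2, Cd5 and Cd4 were the highest. All 8 had their lowest TPM in replicate 3, where 72.9% of detected coding genes did, and 4 of 8 did over clear genes. On that scale replicate 1 was 0.954 (Cd3e) to 1.36 (Trbc2) times replicate 3 for these markers, against 2.20 for Il2. Markers of other cell types that can make or answer these cytokines were near 0, with few exceptions. Mast cell and basophil markers, from cells that also make Il3, summed to between 0 and 2.07 TPM with 0 of 5 detected and Mcpt8, Fcer1a and Ms4a2 at 0; Cpa3 had 4, 0 and 5 counts. B cell markers had 0 of 4 detected and summed to between 0 and 8.53, with Ms4a1 at 0 and nearly all of the sum from Cd79a, which had 27, 0 and 17 counts (8.22, 0 and 7.34 TPM). Cpa3 and Cd79a were named with their values known. Of 5 stromal, endothelial and epithelial markers Pecam1 was detected (2.23 to 4.72 in sum; Col1a1, Col1a2 and Pdgfrb at 0), and of 5 CD8 and NK cell markers Cd8b1 was (7.93 to 29.2 in sum; Cd8a, Ncr1 and Gzma at 0). Of 7 myeloid markers 2 were detected, Cd68 and Csf1r; Csf1r overlaps an opposite gene and made up most of the sum of 113 to 140 TPM, and Lyz2, Adgre1, Itgam, S100a8 and S100a9 were at 0. Of these 5 lists the stromal one had its lowest sum in replicate 3, as Il2 did, and the other 4 had it in replicate 2, where Il3 was highest.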

How the data were processed

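RNA of 3 Th1 libraries was sequenced; the labels name total RNA, but link a library protocol whose title says poly(A) RNA. The authors deposited raw gene counts; per the file headers, featureCounts 1.4.6-p4 assigned read pairs to GENCODE vM13 exons (mm10) at strand setting 1. Exon length in bases was deposited beside each count, per the file headers. Kit and aligner version: not given in the sources used here. Totals per library were 4764598, 2568928 and 2815439.

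TPM was computed here from count and length over all genes. Symbols came from GENCODE vM21 for 50376 of the 50600 identifiers, and all 127 list genes, the 4 members included, were found. Exon coordinates of the deposited tables gave the overlaps between strands. The upper limit behind a count of 0 was set at 3 counts, and intervals of counts and ratios are exact at 95%. Log2 ratios of members used a pseudocount of 0.5 counts and an exact sign-flip test over libraries, and ratios not in log2 used no pseudocount. The chi-square test covered genes with a smallest expected count of at least 5, with Benjamini-Hochberg adjustment. It was tested on simulated data in which unchanged genes had sampling noise only. The real libraries had more than that, so the simulation does not show how the test behaves on them. Reads of the libraries differed between every pair by more than sampling noise, so no library was counted as a repeat of another. The chi-square p-values set differences between these libraries against sampling noise of reads. The sign-flip p-values ask whether a mean log2 ratio over the libraries differs from 0. All libraries share a donor record.

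The genes named are the members, all receptor chains, the 4 highest and up to 4 undetected genes of each other list, opposite-strand genes, the nearest coding gene on each side, and the 5 nearest profiles per member (mean count at least 30). The lists were receptor chains, JAK and STAT proteins, feedback and target genes, inducing factors, repressors of Il2, regulators of AU-rich mRNA, other T cell cytokines, and markers of T, Th1, CD8 and NK, B, myeloid, mast and basophil, and stromal, endothelial and epithelial cells. The result of 1 list gene is not reported here. The members and lists were chosen with earlier results of these data known. Alternatives were other denominators, pseudocounts, library scalings (TMM from edgeR 4.0.16, size factors from DESeq2 1.42.0), filters and detection levels, and each replicate left out. Promoters are RefSeq's on GRCm38.p6, and 3′ untranslated regions are those of GENCODE vM21. The software was R 4.3.3 and Python 3.11.15 with SciPy 1.17.1, pandas 2.3.3, numpy 2.4.6 and matplotlib 3.10.9.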

Additional observations from a re-analysis of the deposited data

How the results depend on the processing

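Of 190 results recomputed under an alternative, 164 kept their direction and side of the threshold, or, for levels, moved by less than 1 SD, and the cause of the other changes was not tested. A smaller denominator raises TPM by construction: over coding genes the mean was 345 for Il2, 53.6 for Il3 and 35.7 for Lif, and over clear coding genes it was 702 for Il2, 111 for Il3, 1.93 for Csf2 and 75.9 for Lif. The mean log2 ratio of Il3 over Lif turned to -2.39 with no length scaling, since Lif is the longer gene, and ran from -0.08 to 0.71 with 1 replicate left out, the lowest without replicate 2. The adjusted p of Lif between libraries was 0.645 with TMM, 0.856 with DESeq2 size factors and 0.889 with totals over clear genes, and ran from 0.00546 to 0.554 with 1 replicate left out. The mean TPM of Il3 ran from 15.9 without replicate 2 to 34.6 without replicate 3. The adjusted p of Il3 ran from 4.72e-05 to 0.125. Genes called between libraries were 9688 in all and 5990 to 7742 with 1 replicate left out, the lowest without replicate 3. At 5 TPM the detected genes fell to 5 feedback and target genes, 2 repressors, 1 myeloid marker and 0 stromal markers. By mean TPM of at least 1 there were 2 Th1, 1 B cell and 1 mast cell marker, and with 1 replicate left out 0 to 1 B cell and 0 to 1 mast cell markers, 1 of each without replicate 2. Coding genes lowest in replicate 3 numbered 6318, and 2805 over clear genes, a setting chosen after seeing the data. No paired analysis was possible because the study has 1 group. With 3 counts in all, Csf2 had too few to compare the libraries, and the cause of its low count was not tested.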
